A study of Mus musculus with 12 samples.

Results

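The corticotropin-releasing factor (CRF) and pituitary adenylate cyclase-activating polypeptide (PACAP) systems were followed here through 10 genes: Crh, Crhr1, Crhr2, Crhbp, Ucn, Adcyap1, Adcyap1r1, Vip, Vipr1 and Vipr2. They were matched by symbol among the 55418 genes of the RNA sequencing count table. All 12 mice were outbred CFW (Swiss Webster) pups in which brainstem (medulla and pons) was taken on postnatal day 15. The 6 morphine mice (3 females, 3 males) had received 15 mg/kg morphine under the skin 2 times daily from postnatal day 1 to 14, and the 6 saline mice (3 females, 3 males) had received saline on the same schedule. Tissue was collected 16 h after the last injection, during spontaneous withdrawal, and the comparison asks how gene expression differs in that state and between the sexes. Morphine and saline pups were raised within the same litters, and the litter of each mouse was not analysed here. Per the study, each library came from the whole dissected tissue of a mouse. Fewer cells of a type and less RNA per cell therefore cannot be told apart in any value below.

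CRF is the hypothalamic peptide that starts the pituitary-adrenal stress response, and it is also made in the brainstem, where the inferior olive and Barrington's nucleus are known CRF sites. Its main receptor is encoded by Crhr1. Urocortin (Ucn) binds both CRF receptors, and the CRF-binding protein (Crhbp) holds the peptide away from them. PACAP (Adcyap1) acts on the PAC1 receptor (Adcyap1r1) and shares the VPAC receptors Vipr1 and Vipr2 with vasoactive intestinal peptide (Vip). These receptors belong to the secretin (class B) family and raise cyclic AMP through the stimulatory G protein.

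Few genes of these systems, and few genes at all, differed between morphine and saline mice past the thresholds. Of the 9 genes with enough counts to test, Vipr1 alone was higher with morphine past the thresholds used in the study (unadjusted p under 0.05 and a log2 fold change over 0.26 in size), in the fit of both sexes together. No gene of the 9 passed in females alone, in males alone or for the treatment by sex interaction. Vipr2 was lower in males than in females. Over all genes 1.19% passed with both sexes together, 1.81% in females, 2.99% in males, 2.94% for the interaction and 3.94% by sex. At such shares, counts of 0 of 9 do not set these genes apart. In none of these fits did a gene of the 9 have an adjusted p under 0.05.

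The libraries held 27850565 to 48097947 assigned counts. The Y-linked genes were present in every library labelled male, but the library labelled morphine male 6 also held 380 CPM (reads assigned to the gene, scaled to a common library size) of Xist, against at most 2.65 CPM in the other 5 males and at least 550 CPM in females, and its 4 Y-linked genes stood at 8.38 to 29.6% of the mean of the other males. Results without it are given for some genes only, among them Crhbp, Adcyap1r1, Vipr1 and Vipr2. The labels name brainstem as the tissue and spinal cord in the extraction text. Of the brainstem markers, Slc6a5 (468 to 636 CPM) and Tph2 (19.7 to 41.9 CPM) were present in all 12 libraries. All 8 lower spinal cord Hox genes stayed under 1 CPM, and so did the hypothalamic genes Avp, Oxt and Hcrt, whose highest value was 0.0854 CPM. The saline males stood apart from each other in base composition. The slope of each library's log2 expression on transcript GC content was 0.45 and 0.57 (log2 per 10 percentage points of GC) in saline males 1 and 2, the highest of the 12, and -0.56 in saline male 3, the lowest. Values from -0.32 to 0.27 were found in the other 9 libraries.

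Compared per kilobase of exon, the receptor for PACAP was the most abundant of the 10 messages. Adcyap1r1 stood at 53.9 ± 3.36 CPM per kb (SD, n = 12), with no overlap with Adcyap1 in second place at 10.3 ± 1.41. Next came Crh at 7.67 ± 1.38, Crhbp at 5.71 ± 0.95 and Crhr1 at 3.87 ± 1.22 CPM per kb. Neighbours from Adcyap1 down to Crhr1 overlapped in their ranges, although Adcyap1 was above Crh in all 12 libraries, Crh above Crhbp in 11 and Crhbp above Crhr1 in 9. Vip (0.99 ± 0.20) and Vipr2 (0.87 ± 0.14) lay apart from Crhr1 but not from each other, with Vip higher in 8 libraries. Crhr2 (0.139 ± 0.045) and Vipr1 (0.126 ± 0.038) were again below every value of Vipr2, and Crhr2 was the higher of them in 6 of 12 libraries, so their order is not resolved. Within each receptor family 1 receptor dominated. Adcyap1r1 made up 97.5 to 98.5% of the summed length-normalised level of the 3 PACAP and VIP receptors, and Crhr1 made up 94.7 to 97.9% of the CRF receptors.

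**Figure D1:**
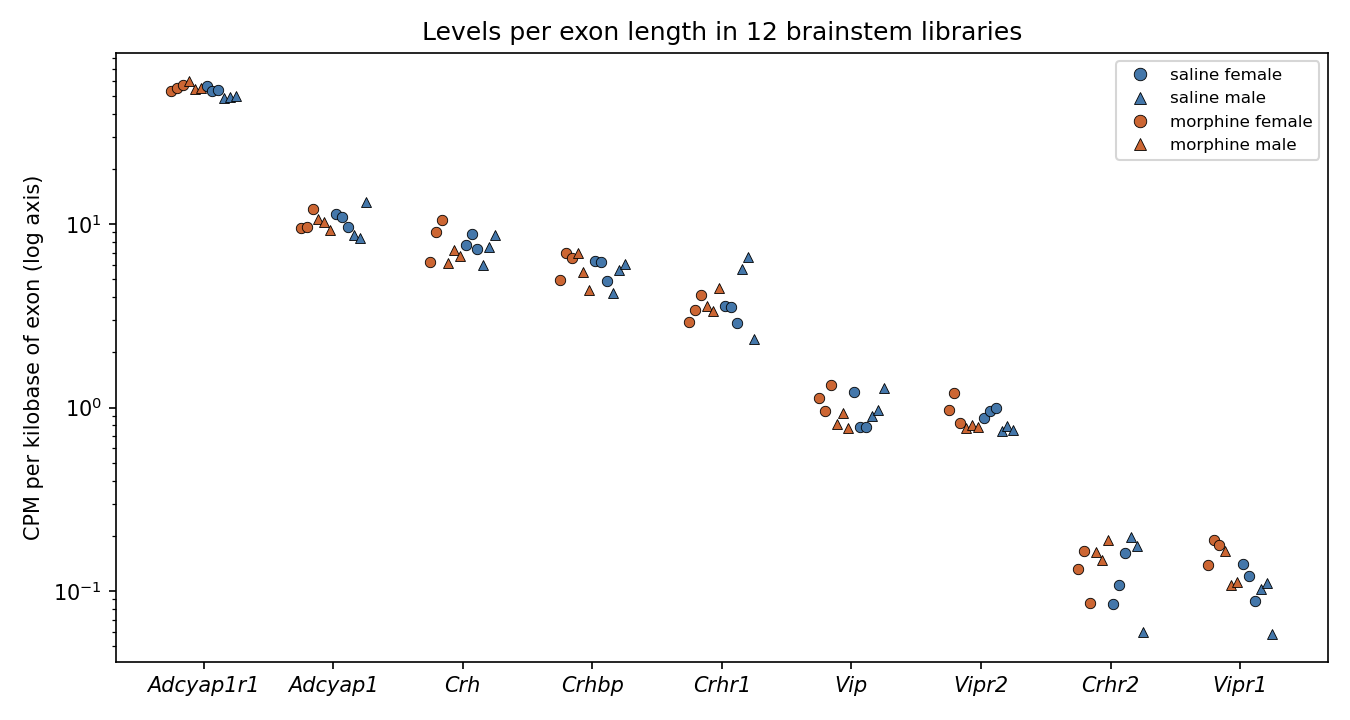
Level per exon length (CPM per kilobase, log axis) of 9 genes in each of the 12 libraries, coloured by treatment and shaped by sex, with the horizontal offset within a gene only separating the points. Adcyap1r1, near 53.9, stood above all other genes, and Vipr1 and Crhr2, near 0.13, stood at the bottom. Ucn, at 0 in 8 libraries, is not drawn.

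Sequences upstream of the genes show what the peptide genes share. Cyclic AMP acts on transcription through CREB, whose element reads TGACGTCA, and the windows below were taken to show that element in the peptide genes. They come from RefSeq promoters on GRCm38.p6, which reach 250 bases before and 50 bases after each annotated start. Promoters of 9 of the 10 genes were matched, and Crh had no entry. The full element, searched on both strands, was in 588 of 32851 promoters (1.79%), and its first 7 letters, TGACGTC, were in 1053 (3.21%), which include the former. Of the 9 genes, Ucn held the full element and Adcyap1 and Vip the first 7 letters. Capitals mark the element, which begins 44, 91 and 79 bases before the start in Ucn (chr5:31138906-31138965, minus strand), Adcyap1 (chr17:93198900-93198958, plus strand) and Vip (chr10:5639113-5639171, plus strand).
Ucn: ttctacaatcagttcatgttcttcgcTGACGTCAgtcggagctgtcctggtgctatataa
Adcyap1: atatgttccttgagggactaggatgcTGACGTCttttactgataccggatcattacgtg
Vip: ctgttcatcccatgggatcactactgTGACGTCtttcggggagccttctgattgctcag
These matches describe the letters of the windows and were not tested against the expression values.

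The CRF peptide gene was expressed at the same order in both treatments. Crh (GRCm38 chr3:19693401-19695396, minus strand) had a lowest, median and highest value of 7.95, 10.1 and 11.7 CPM in saline mice and 8.08, 9.21 and 13.8 CPM in morphine mice. The ranges overlapped, with saline male 1 lowest and morphine female 3 highest of all. The fitted difference (morphine minus saline, log2) was -0.02 ± 0.14 (SE), with a 95% interval from -0.33 to 0.29. Over females it was 0.10 ± 0.19 and over males -0.18 ± 0.20, neither past the thresholds. The 3 morphine males, at 8.08, 9.58 and 8.84 CPM, were closer together than the 3 morphine females, at 8.16, 12.0 and 13.8 CPM.

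Crhbp (chr13:95431371-95444924, minus strand), the secreted protein that binds CRF, ran at a similar level. Its lowest, median and highest values were 7.59, 10.5 and 11.3 CPM in saline mice and 7.86, 10.8 and 12.6 CPM in morphine mice. The groups overlapped almost fully, and the fitted difference was 0.08 ± 0.15 (95% interval -0.23 to 0.40). In males it was 0.05 ± 0.24. Without the library labelled morphine male 6 these differences were 0.15 and 0.19, and without morphine male 4 they were 0.003 and -0.13. None of them passed. Of the summed length-normalised level of Crh and Crhbp, Crhbp made up 40.1 to 44.9% in saline mice and 38.4 to 53.2% in morphine mice, so the balance of peptide and binding protein messages also overlapped.

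Ucn (chr5:31138063-31138829, minus strand), the gene for urocortin, was at the limit of detection. It had 0 counts in 8 libraries, 1 count each in saline males 2 and 3 and in the library labelled morphine male 6, and 2 counts in morphine male 4. None of the 6 females had a count. A count of 0 allows a level of up to 0.0850 to 0.108 CPM in those libraries (3 counts, counting error only), so Ucn was not tested and no difference was detectable at this depth.

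The CRF receptors varied more between mice than between treatments. Crhr1 (chr11:104132855-104175523, plus strand) had a lowest, median and highest value of 5.83, 8.74 and 16.3 CPM in saline mice and 7.17, 8.56 and 11.0 CPM in morphine mice. Saline mice held both ends, since saline male 3 was the lowest of the 12 and saline males 2 and 1 the highest at 16.3 and 14.1 CPM. The fitted difference was -0.16 ± 0.22 (95% interval -0.62 to 0.31), and the morphine range lay inside the saline range. Its coefficient of variation over the 12 mice was 31.5%, against 5.5% from counting alone.

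Crhr1 followed the GC slope of the libraries. Its log2 level correlated with that slope over the 12 mice at Pearson r = 0.96 and Spearman rho = 0.94 (permutation p = 2.00e-05 and 4.00e-05, two-sided, 100000 resamples, the former the smallest they can give; adjusted over 9 genes 0.00018 and 0.00036). Without saline males 2 and 3, the 2 libraries of most extreme slope, r was 0.92, and within saline and within morphine mice it was 0.99 and 0.81 (n = 6 each). Slope and level come from the same libraries, and this relation was chosen after the values were seen. A large |r| with the slope was common, with a median of 0.74 over 15057 genes, and 7.91% of genes exceeded Crhr1. The longest Crhr1 transcript has 58.2% GC. Of the other genes, Adcyap1, with a transcript of 42.8% GC, had r = -0.71 and rho = -0.54 (adjusted permutation p = 0.039 and 0.23), and its r was -0.83 in saline and -0.11 in morphine mice. Without saline males 2 and 3 it was -0.35, so the Adcyap1 relation rested on those libraries. For the other 7 genes no correlation passed the adjustment, and r ran from -0.37 (Crh) to 0.61 (Crhr2).

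**Figure D2:**
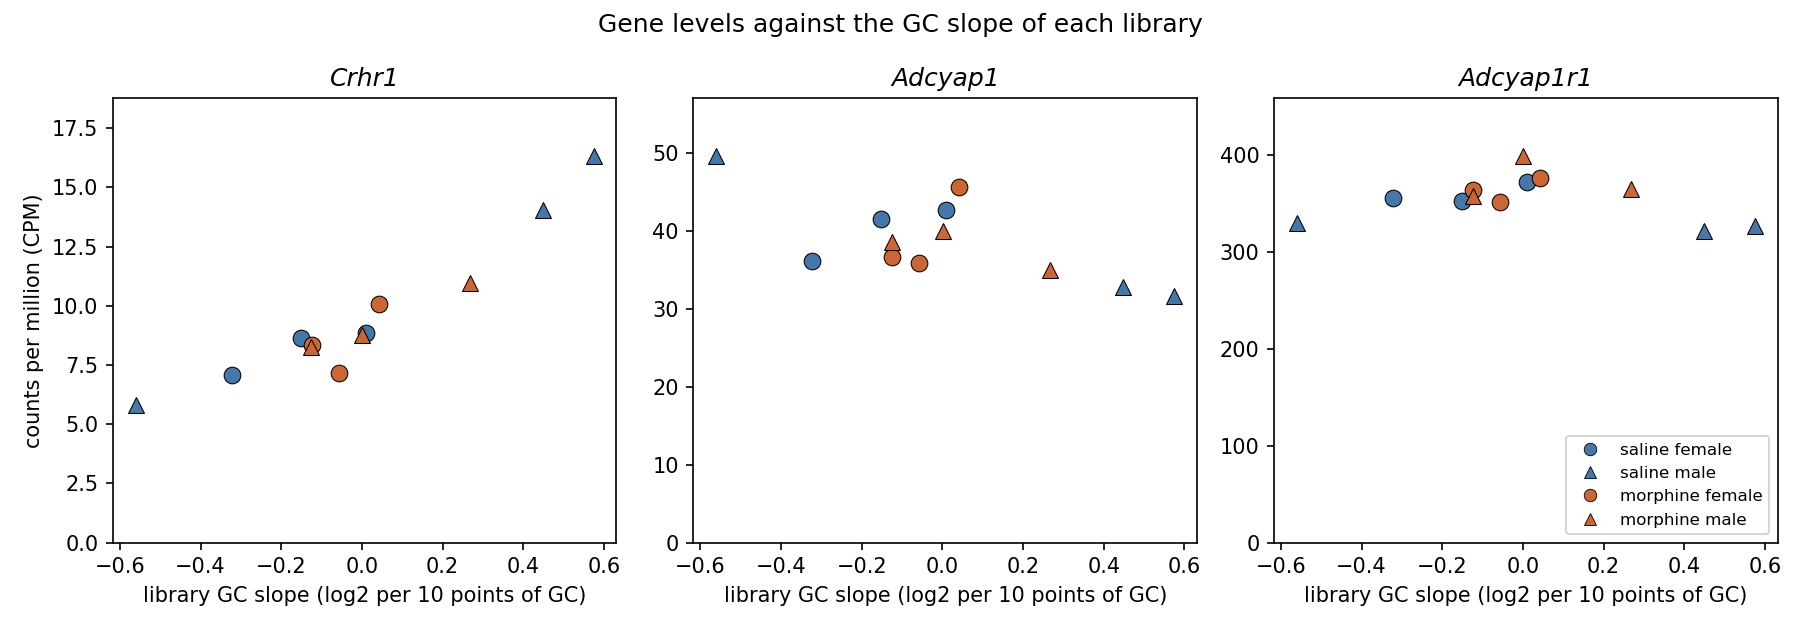
CPM of Crhr1, Adcyap1 and Adcyap1r1 against the GC slope of each of the 12 libraries (log2 per 10 percentage points of transcript GC), coloured by treatment and shaped by sex. Crhr1 climbed from 5.83 CPM at the lowest slope to 16.3 CPM at the highest, both saline males, while Adcyap1 ran from 49.7 to 31.6 CPM over the same libraries.

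In males, the Crhr1 comparison turned on the saline mice. Saline males had 14.1, 16.3 and 5.83 CPM and morphine males 8.77, 8.26 and 11.0 CPM, a difference of -0.40 ± 0.37 that did not pass. Without saline male 3 it was -0.69 with an adjusted p of 0.036 by edgeR's quasi-likelihood test. That fit, whose remaining saline males were the pair of highest GC slope, called 28.6% of all genes. Without saline male 2 it was -0.12 and did not pass. With offsets for GC content and length the difference over all males was -0.08. In females Crhr1 was at 8.83, 8.65 and 7.08 CPM with saline and 7.17, 8.35 and 10.1 CPM with morphine, overlapping, with a difference of 0.05 ± 0.16.

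Crhr2 (chr6:55090049-55133016, minus strand), the receptor preferred by the urocortins, rested on 10 to 42 counts per library. Its lowest, median and highest values were 0.307, 0.689 and 1.01 CPM in saline mice and 0.443, 0.797 and 0.976 CPM in morphine mice. The ranges overlapped, saline male 3 was again the lowest, and the difference was 0.17 ± 0.29 (95% interval -0.45 to 0.78). Without saline male 3 it was -0.02.

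PACAP itself spread most widely among the saline males. The SD of its message was 10.1 CPM in saline males and 2.59 CPM in morphine males. In females the order was the other way, with 3.46 CPM with saline and 5.45 CPM with morphine (n = 3 each). The difference in spread was not tested. Adcyap1 (chr17:93199017-93206537, plus strand) had a lowest, median and highest value of 31.6, 38.9 and 49.7 CPM in saline mice and 35.0, 37.6 and 45.7 CPM in morphine mice. The saline range enclosed the morphine range, with saline male 3 highest and saline male 2 lowest of the 12. The difference was -0.02 ± 0.12 (95% interval -0.27 to 0.24), and by sex it was -0.03 ± 0.12 in females and -0.03 ± 0.21 in males.

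The PAC1 receptor showed its spread in males. Adcyap1r1 (chr6:55451978-55501451, plus strand) had a lowest, median and highest value of 321, 341 and 372 CPM in saline mice and 352, 365 and 399 CPM in morphine mice. The groups overlapped, and the 3 highest saline values were all females. Saline males stood at 321, 327 and 330 CPM, the 3 lowest values of the 12, and morphine males at 399, 357 and 365 CPM, so the male groups did not overlap. Females stood at 372, 352 and 356 CPM with saline and 352, 364 and 376 CPM with morphine. The fitted difference was 0.11 ± 0.06 over both sexes (95% interval -0.03 to 0.24), 0.17 ± 0.11 in males and 0.01 ± 0.08 in females, none past the thresholds. With libraries scaled by total counts in place of TMM factors, the male difference was 0.29 and the interaction 0.28, and both passed (edgeR adjusted p = 0.9999 and 0.95). That scaling called 4.44% of all genes in males and 3.68% for the interaction. With TMM factors the male difference was 0.18 when the library labelled morphine male 6 was left out. Relative to its level Adcyap1r1 was the least variable of the genes, with a coefficient of variation of 6.23%.

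The Vip estimates had opposite signs in the sexes, and neither passed. Vip (chr10:5639218-5647617, plus strand) stood at 4.13, 2.66 and 2.65 CPM in saline females and 3.82, 3.25 and 4.54 CPM in morphine females. In males it stood at 3.05, 3.31 and 4.36 CPM with saline and 2.75, 3.19 and 2.63 CPM with morphine. Groups overlapped in both sexes. The difference was 0.29 ± 0.23 in females, -0.35 ± 0.22 in males and -0.01 ± 0.18 over both sexes. The interaction, -0.62 ± 0.33 (95% interval -1.34 to 0.10), was the largest in size of the 9 and did not pass (edgeR adjusted p = 0.98). Without saline female 4, the saline female with the highest value, the female difference was 0.53 and the interaction -0.88, and both passed at unadjusted p (edgeR adjusted p = 0.61 and 0.80). Other mice moved the estimates toward 0, to 0.16 in females without morphine female 3 and -0.15 in males without saline male 3.

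Vipr1 (chr9:121642716-121672954, plus strand), encoding the VPAC1 receptor, was the gene that passed with morphine. Its lowest, median and highest values were 0.338, 0.617 and 0.814 CPM in saline mice and 0.625, 0.879 and 1.10 CPM in morphine mice. The 2 highest values were morphine females, the 3 lowest were saline mice, and the middle of the ranges overlapped. The difference was 0.51 ± 0.22 (95% interval 0.04 to 0.99, edgeR adjusted p = 1.00), with estimates of 0.52 ± 0.33 in females and 0.47 ± 0.35 in males that did not pass alone. The gene rested on 11 to 38 counts per library, and counting alone gives a coefficient of variation of 20.2% against the 30.3% seen. The call was lost when any of saline male 3, saline females 5 and 6, morphine females 2 and 3 or morphine male 4 was left out (0.40 to 0.52, edgeR adjusted p = 0.93 to 1.00), and it held, at 0.55, without the library labelled morphine male 6. It was also lost with DESeq2 (0.50) and with no filter on low counts (0.50). Meningeal fibroblast and cerebellar markers differed in the same comparison, and their part in the Vipr1 result was not tested. Of 8 meningeal markers all 8 had lower estimates, 1 of them past the thresholds, with sums of 119 to 190 CPM in saline and 83.9 to 172 CPM in morphine mice. Of 8 cerebellar markers 6 had higher and 2 lower estimates. Of these, 3 were higher past the thresholds, where 1.19% of all genes passed in either direction. Cerebellar sums were 106 to 155 CPM in saline and 115 to 206 CPM in morphine mice, with medians of 134 and 141 CPM. No marker of either list was under 1 CPM in every library.

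**Figure D3:**
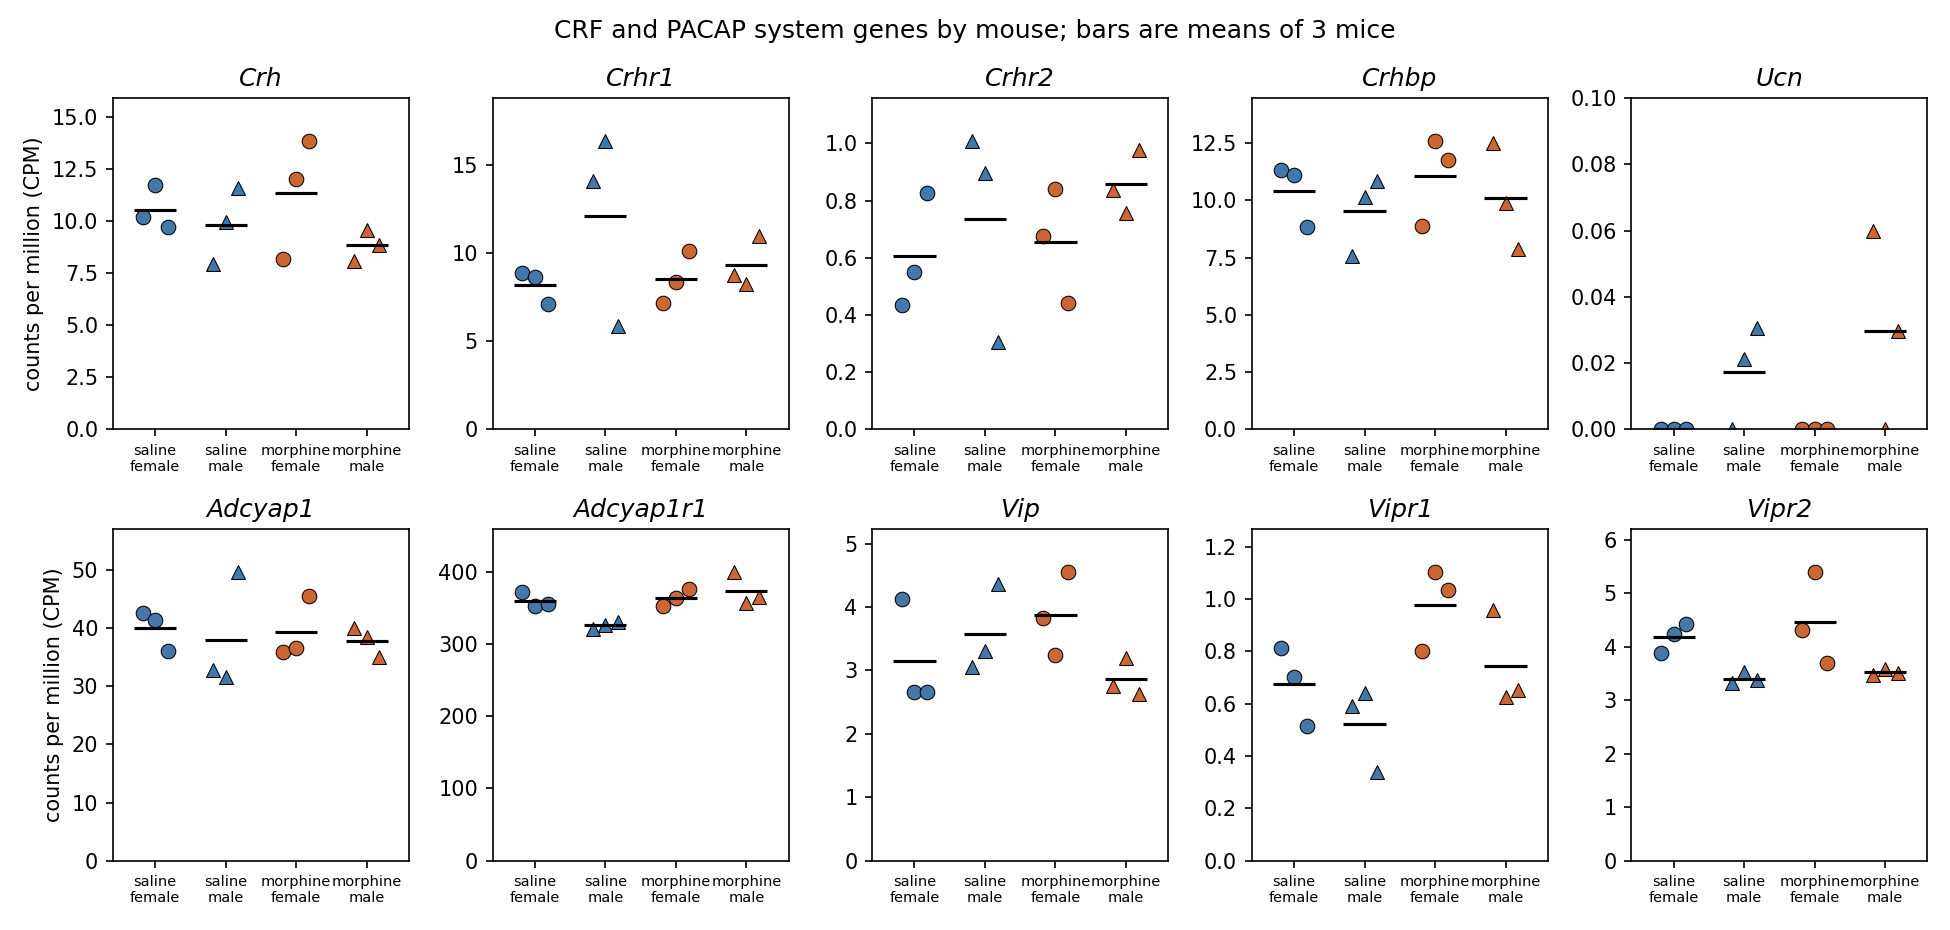
CPM of the 10 genes in each mouse, with saline mice in blue, morphine mice in orange, circles for females, triangles for males and a bar at the mean of the 3 mice of each group, each axis starting at 0 CPM. Vipr1 ran from 0.338 to 0.814 CPM in saline and 0.625 to 1.10 CPM in morphine mice, Vipr2 was lower in males than in females, and the 3 saline males were the lowest for Adcyap1r1.

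Vipr2 (chr12:116077726-116146261, plus strand), encoding the VPAC2 receptor, did not pass by treatment but was the gene that passed for sex. In saline and morphine mice its median was 3.71 and 3.64 CPM, with ranges of 3.32 to 4.42 and 3.47 to 5.39 CPM that overlapped and a difference of 0.07 ± 0.12 (95% interval -0.18 to 0.32). In females the lowest, median and highest values were 3.69, 4.28 and 5.39 CPM, and in males 3.32, 3.50 and 3.59 CPM. The sexes did not overlap. The difference, male minus female, was -0.32 ± 0.12 (95% interval -0.57 to -0.07, edgeR adjusted p = 0.73), and -0.32 without the library labelled morphine male 6. The call was lost without saline female 6 (-0.28) or morphine female 2 (-0.25), and with no filter on low counts (-0.31). Choroid plexus markers also differed between the sexes, with higher estimates in males for all 8. Of these, 5 were past the thresholds, where 3.94% of all genes passed by sex. Sums of the markers were 24.1 to 498 CPM in females and 291 to 868 CPM in males, and no marker was under 1 CPM in every library. Their part in the Vipr2 result was not tested.

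The promoters of the VPAC receptors are shown because Vipr1 and Vipr2 were the genes that passed a test. Neither held the cyclic AMP element. Capitals mark the GC box core GGGCGG on either strand, which was in 11714 of 32851 promoters (35.7%). It occurred 4 times in Vipr1 (chr9:121642466-121642765, plus strand) and 1 time in Vipr2 (chr12:116077476-116077775, plus strand), and their GC content was 73.7% and 65.3%. Of all promoters, 94.9% and 82.3% had a lower GC content.
Vipr1: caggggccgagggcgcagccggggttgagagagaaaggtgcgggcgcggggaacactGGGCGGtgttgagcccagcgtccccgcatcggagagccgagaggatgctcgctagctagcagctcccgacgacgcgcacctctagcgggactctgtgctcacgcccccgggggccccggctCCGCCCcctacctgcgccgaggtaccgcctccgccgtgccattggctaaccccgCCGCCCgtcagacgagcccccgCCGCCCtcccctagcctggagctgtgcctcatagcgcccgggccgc
Vipr2: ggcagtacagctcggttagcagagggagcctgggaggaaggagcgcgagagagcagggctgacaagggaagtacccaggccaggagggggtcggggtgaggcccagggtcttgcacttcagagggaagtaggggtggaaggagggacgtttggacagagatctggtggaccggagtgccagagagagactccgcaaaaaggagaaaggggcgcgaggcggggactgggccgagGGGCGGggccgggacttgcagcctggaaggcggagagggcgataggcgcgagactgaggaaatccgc

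The counts stand beside those over all genes as follows. In the fit of both sexes 1 of 9 genes passed, where 1.19% of 18608 genes did so, and none of the latter had an adjusted p under 0.05 (246 had an unadjusted p under 0.05). By direction, 5 estimates were positive and 4 negative, with a median of 0.07 against -0.02 over all genes. In females 0 of 9 passed against 1.81% of 18109 genes, and in males 0 of 9 against 2.99% of 18166. The counts of positive estimates were 8 and 5. The median estimate of the 9 genes was 0.09 in females and 0.02 in males, beside -0.01 and -0.06 over all genes. For the interaction 0 of 9 passed against 2.94% of 19027 genes. By sex 1 of 9 passed against 3.94% of 18608 genes, of which 5 had an adjusted p under 0.05. Apart from Vipr2, sex estimates (male minus female) ran from -0.37 ± 0.22 for Vipr1 to 0.35 ± 0.22 for Crhr1, without passing. With offsets for GC content and length the sex estimate was 0.02 for Crhr1, 0.08 for Crhr2 (from 0.34) and -0.58 for Vipr1, which then passed (edgeR adjusted p = 0.88), and the Crhr1 interaction was -0.01 (from -0.43). Without saline male 3 the sex fit called 20.9% of all genes and 3 of the 9, Crhr1 (0.50), Crhr2 (0.52) and Vipr2 (-0.30), with edgeR adjusted p of 0.073, 0.16 and 0.13. The interaction fit without it called 24.1% of genes and Crhr1 (-0.79, edgeR adjusted p = 0.059).

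**Figure D4:**
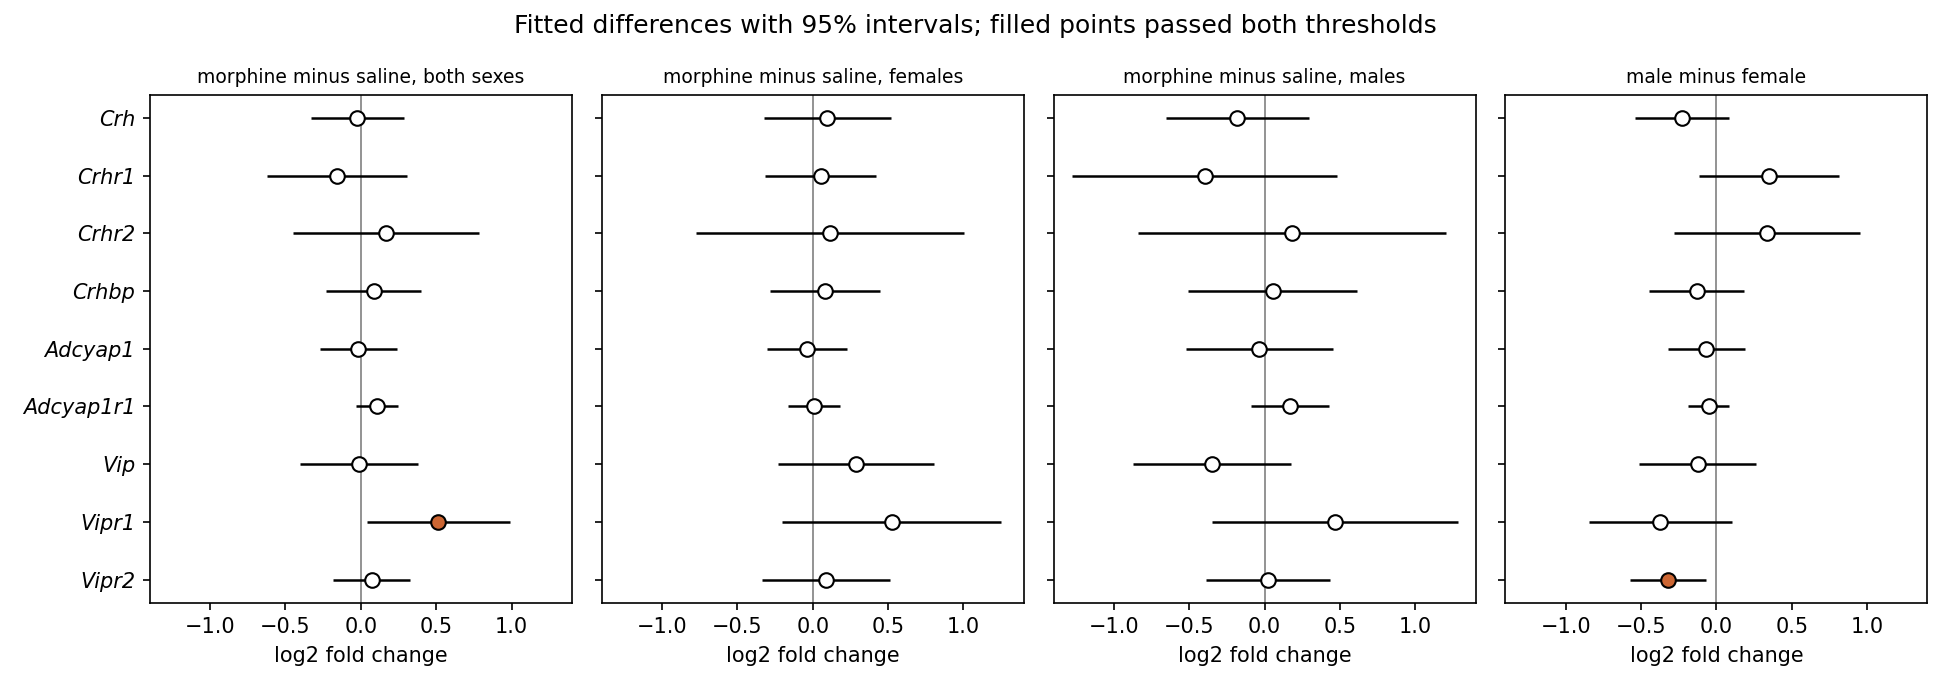
Fitted log2 fold changes (points) with 95% intervals (lines) of the 9 tested genes for morphine minus saline in both sexes, in females and in males, and for male minus female. The filled points, Vipr1 at 0.51 with morphine and Vipr2 at -0.32 in males, are the 2 that passed both thresholds. All other intervals crossed 0.

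Pairs of genes across the 12 mice were followed for 6 relations. Crh correlated with Crhbp (r = 0.60, rho = 0.62) and with Adcyap1 (r = 0.60, rho = 0.58). It also correlated with the mean log2 level of the inferior olive markers (r = 0.62, rho = 0.62). Each had an adjusted permutation p of 0.088 for r and 0.10 for rho, so none was under 0.05. The unadjusted p were 0.039, 0.044 and 0.034 for r, and 0.037, 0.051 and 0.036 for rho, by permutation. Without the 2 mice farthest out r was 0.44, 0.39 and 0.72, and within saline and morphine mice it was 0.89 and 0.48, 0.74 and 0.60, and 0.80 and 0.54. The sum of the inferior olive markers, which did not enter the correlation, was 79.1 to 125 CPM over the 12 libraries. The ligand and receptor pairs showed less, with r of -0.20 for Crh and Crhr1, 0.32 for Adcyap1 and Adcyap1r1 and -0.11 for Vip and Vipr2 (rho -0.15, 0.45 and -0.01, adjusted permutation p = 0.63, 0.47 and 0.76 for r and 0.78, 0.21 and 0.99 for rho). Without the 2 farthest mice these r were -0.15, 0.72 and 0.12.

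Likeness to the peptide genes was ranked by Pearson r of log2 level over the 12 libraries among 15056 other genes. The highest for Crh were Gpr27 (0.94), Rab5if (0.93) and Fkbp1a (0.93), and 90 genes exceeded 0.8. For Adcyap1 they were Cd200 (0.97), B3galnt1 (0.96) and Lrp11 (0.95), with 790 genes over 0.8. For Vip they were Cycs (0.89), Rps24 (0.88) and Usmg5 (0.88), with 63 genes over 0.8, and Rps24 has near-identical copies in the genome that make its counts uncertain. All of these values share the same 12 libraries, and they are given as a description.

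The wider signaling route was read through 3 lists. Among 19 further ligands, receptors and accessory proteins of the family, 12 were tested and 9 stayed under 1 CPM in every library. Ucn2, Ucn3, Ghrh, Ghrhr, Sct, Gip and Gcgr had too few counts to test. None of the 12 passed with morphine in either fit by sex or in both together. Gipr, the receptor for gastric inhibitory polypeptide, passed for the interaction (1.01 ± 0.45, edgeR adjusted p = 0.98). It stood at 0.70, 0.55 and 0.69 CPM in saline females, 0.49, 0.38 and 0.44 in morphine females, 0.59, 0.49 and 0.28 in saline males and 0.60, 0.69 and 0.59 in morphine males. Morphine females were all below saline females, while the male groups overlapped at 0.59 CPM. The Gipr call held when saline male 1 or saline female 5 was left out and was lost without any of the other 10 mice (0.75 to 1.09). By sex 1 of 12 passed, beside 3.94% of all genes, Ramp3, a receptor accessory protein, higher in males (0.60 ± 0.25). No gene of the list had an edgeR adjusted p under 0.05 in any fit.

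The route inside the cell, with the stimulatory G protein, adenylate cyclases, protein kinase A, Epac and CREB with its coactivators, held 25 genes, all tested. None of these genes had an edgeR adjusted p under 0.05 in any fit, and the smallest was 0.73, by sex. With morphine 0 of 25 passed over both sexes and in females. In males 1 of 25 passed, beside 2.99% of all genes, Gnas, the stimulatory G protein subunit itself, lower at -0.33 ± 0.14. Gnas stood at 66.6, 77.7 and 83.4 CPM in saline males and 64.4, 59.1 and 61.3 CPM in morphine males, without overlap. Its call held without saline male 1 and was lost without any of the other 5 males (-0.36 to -0.22). It was also lost in 7 of 8 other settings (-0.36 to -0.20), among them edgeR's exact test, DESeq2 and offsets for GC content and length, and held with at least 10 counts in every library. The median over the 25 genes was 0.00 with both sexes together, against -0.02 over all genes. By sex 3 of 25 passed, beside 3.94% of all genes, each higher in males, the cAMP-activated exchange factor Rapgef3 (0.62 ± 0.26) and the CREB coactivators Crtc2 (0.30 ± 0.14) and Crtc3 (0.44 ± 0.18). Rapgef3 was at 24.9, 24.5 and 6.84 CPM in saline males, with the ends of the male range again in saline males 1 and 3, and 9.65 to 11.3 CPM in females.

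Peptides of both systems are cut from precursors and packed into dense-core vesicles, and 16 genes of that machinery were tested. The smallest edgeR adjusted p of these genes in any fit was 0.73, by sex. None passed with morphine over both sexes or in females, and 2 of 16 passed in males, beside 2.99% of all genes. Pcsk1n, which encodes the inhibitor of the convertase PC1/3, stood at 42.0, 56.6 and 6.78 CPM in saline males and 8.38, 9.15 and 12.6 CPM in morphine males. Saline males 1 and 2 were far above every other library, since the females ran from 5.45 to 13.1 CPM, and the fitted differences were -1.83 ± 0.67 in males and -2.16 ± 0.77 for the interaction (edgeR adjusted p = 1.00 and 0.98). The male call was lost without any of saline males 1 and 2 and morphine males 4 and 5 (-1.72 to -1.30), and the interaction held with each mouse left out. Scg5, which encodes the PC2 chaperone 7B2, stood at 419, 383 and 432 CPM in saline males and 346, 333 and 344 CPM in morphine males, without overlap, a difference of -0.30 ± 0.11. That call held without saline male 2 and was lost without any of the other 5 males (-0.32 to -0.22). It was also lost in 4 of 8 other settings, which were edgeR's exact test (-0.30), DESeq2 (-0.28), scaling by total counts (-0.17) and no filter on low counts (-0.31). By sex Furin, a convertase of the secretory route, was higher in males (0.59 ± 0.27), with 25.1 and 29.9 CPM in saline males 1 and 2 and 7.89 CPM in saline male 3. Without saline male 1, saline male 2, saline female 5 or the library labelled morphine male 6, none of the sex calls of Ramp3, Rapgef3, Crtc2, Crtc3 and Furin passed (0.24 to 0.62). With offsets for GC content and length Crtc2 (0.13), Crtc3 (0.14), Furin (0.31) and Ramp3 (0.38) were lost, and Rapgef3 passed at 0.31. Choroid plexus markers also differed in the male comparison. All 8 had higher estimates in morphine males and 5 passed. Their sums were 291 to 538 CPM in saline and 433 to 868 CPM in morphine males, and overlapped. Of 8 cerebellar markers 6 had higher and 2 lower estimates in morphine males, and 3 were higher past the thresholds. Cerebellar sums were 106, 110 and 155 CPM in saline males and 115, 139 and 206 CPM in morphine males. For the interaction, on which Gipr and Pcsk1n passed, 2.94% of all genes passed. Estimates were positive for all 8 choroid plexus markers (1 past the thresholds) and all 8 meningeal markers (2 past them), and 1 of 8 cerebellar markers passed. The part of these markers in the differences was not tested.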

How the data were processed

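Gene counts were the only measurement. Per the labels and the study's methods, the authors sequenced poly-A libraries as single-end 100 bp reads, trimmed them, aligned them with STAR to the mouse genome and assigned them to exons of the GRCm38 annotation with featureCounts, and the deposited counts are whole numbers per gene symbol. The study describes them as normalized, but they are unscaled, with totals from 27850565 to 48097947. The strand setting of the counting is not given in the sources used here. The 10 genes share no exon bases with another annotated gene.

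Counts were analysed with edgeR 4.0.16 in R 4.3.3 (filterByExpr on the design, TMM factors, quasi-likelihood test, Benjamini-Hochberg adjustment over all genes tested). Sexes together were fitted with sex as a covariate, then females, males and the interaction. A gene passed with p under 0.05 before adjustment and a log2 fold change beyond 0.26 in either direction. Levels are TMM-scaled CPM, and log2 values used a prior count of 2. Exon lengths and positions came from GENCODE M21 on GRCm38, where 55341 of 55418 symbols matched. Correlations used 100000 permutations (scipy 1.17.1). The scripts were tested on simulated counts.

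The members, the lists and the tests were chosen with earlier results of these data known. All 10 members are named. From each pathway list the genes named are those that passed in a comparison, at most 3 per comparison with the smallest p, and the genes most like Crh, Adcyap1 and Vip are the 3 of highest r among those with a mean of at least 1 CPM. The list of 5 inferior olive markers had 0 genes past the thresholds with morphine in both sexes together. Alternatives were other scalings, filters and tests (DESeq2 1.42.0 among them), each mouse left out and, added after seeing the data, offsets for GC content and length (loess, span 0.5). Per the study the libraries came from separate mice. No 2 libraries of a group agreed within sampling noise, which does not by itself show that they came from separate animals. Depth limits the precision of genes of few counts, and the upper limits for 0 counts cover counting error only.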

Additional observations from a re-analysis of the deposited data

Results flagged for a closer look

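The interaction of treatment and sex tests whether the morphine difference is alike in females and males. It was past the thresholds for 2 genes of the pathway lists, where 2.94% of all genes passed. By list this was 1 of 12, 0 of 25 and 1 of 16 tested genes, counts that do not set the lists apart from all genes. Gipr had an interaction of 1.01 and Pcsk1n of -2.16 on the log2 scale (edgeR adjusted p = 0.98 for both, so neither held after adjustment). The Gipr call was lost without 10 of the 12 mice, and the Pcsk1n value stood beside levels of 42.0 and 56.6 CPM in saline males 1 and 2. By the same test 0 of the 9 tested CRF and PACAP system genes passed.

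A mouse stood far from the others of its treatment for 2 genes. Ramp3 was highest in the library labelled morphine male 6 at 2.16 CPM, with the nearest morphine mouse at 1.25 CPM. Scg5 was highest in morphine female 3 at 466 CPM, with the nearest morphine mouse at 376 CPM. Over 38 groups examined this makes 2, and chance alone marks about 1 in 20.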

How the results depend on the processing

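Of 412 values of single genes recomputed under other settings, 364 kept their direction and their side of the thresholds, and of 534 recomputed with 1 mouse left out, 401 did. The count of CRF and PACAP system genes past the thresholds with both sexes together was 0 under DESeq2, with no filter on low counts and with the replicate number as a block (replicate block), against 1, and 0 to 1 with a mouse left out. The labels do not say that replicate numbers pair the mice. Same-numbered libraries correlated at -0.51 to 0.24, which cannot tell whether mice shared a litter, since litters were not known here. Under the replicate block the sex count stayed 1, and sex calls of Furin, Crtc3, Ramp3 and Rapgef3 were lost. GC and length offsets also lost those of Crtc2, Crtc3, Furin and Ramp3. In males and for the interaction the count was 1 (Adcyap1r1) with scaling by total counts, where 4.44% and 3.68% of all genes passed. With a mouse left out the count was 0 to 1 in these fits, as in females. For sex it was 2 (Vipr1, Vipr2) with GC and length offsets, and 0 to 3 with a mouse left out. The share of all genes called ran up to 28.6% in males without saline male 3, from 2.99%. Alternatives were not run for the relations across mice, apart from the 2 farthest mice left out.

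Signs changed for log2 estimates near 0, none of them past the thresholds in either fit. With GC and length offsets Adcyap1 was 0.0039 in both sexes, 0.026 in females, -0.052 for the interaction and 0.0097 for sex, Crhr1 -0.075 in females, Vip 0.00062 in both sexes and Vipr1 0.13 for the interaction. Scaling by total counts gave, in both sexes, Adcyap1 0.032, Crh 0.023 and Vip 0.037, then Adcyap1 0.092 in males and, for the interaction, Crhbp 0.092, Vipr1 0.060 and Vipr2 0.052. Vip in both sexes was 0.00014 with no sex covariate and 0.0011 with the replicate block. The Adcyap1 interaction was -0.0024 with DESeq2 and -0.0028 with its size factors, and the Crhbp interaction 0.0094 with at least 10 counts in every library. With a mouse left out, the ranges in both sexes were -0.088 to 0.071 for Adcyap1, -0.13 to 0.033 for Crh, -0.024 to 0.28 for Crhr2, -0.12 to 0.077 for Vip and -0.0021 to 0.10 for Vipr2. In females they were -0.15 to 0.029 for Adcyap1, -0.015 to 0.033 for Adcyap1r1, -0.068 to 0.29 for Crh, -0.022 to 0.22 for Crhbp, -0.083 to 0.16 for Crhr1, -0.11 to 0.42 for Crhr2 and -0.072 to 0.20 for Vipr2. In males they were -0.15 to 0.24 for Adcyap1, -0.13 to 0.19 for Crhbp, -0.14 to 0.44 for Crhr2 and -0.0027 to 0.066 for Vipr2. Interactions ran from -0.10 to 0.24 for Adcyap1, -0.19 to 0.14 for Crhbp, -0.29 to 0.35 for Crhr2, -0.29 to 0.14 for Vipr1 and -0.16 to 0.11 for Vipr2, and Adcyap1 for sex from -0.15 to 0.012. The cause was not tested.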

Other observations

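The dopamine transporter gene Slc6a3, a midbrain marker, reached 6.80 CPM in the library labelled morphine male 6, 5.96 CPM in saline male 1 and 3.84 CPM in morphine female 3, against 0.149 to 0.757 CPM in the other 9 libraries. In the same 3 libraries Crhr1 stood at 11.0, 14.1 and 10.1 CPM, below saline male 2 alone, and their GC slopes of 0.27, 0.45 and 0.04 came next after that of saline male 2. Saline male 2 itself, highest for Crhr1 and for GC slope, had the lowest Slc6a3 of the 12 libraries at 0.149 CPM. A relation of Slc6a3 to Crhr1 was not tested. Crh was lowest of the 12 in saline male 1 and highest in morphine female 3.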
